A study of Rattus norvegicus with 8 samples.

Results

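The complement genes described here are 9 genes chosen by name, C1r, C1s, Masp1, C3, Cfb, Serping1, Cd55, Cd59 and Cd46, and were taken from the deposited gene table by symbol. Of the 31699 rows of the table, 8 carried one of these symbols, with the rat Ensembl identifiers ENSRNOG00000011796 (C1r), ENSRNOG00000011971 (C1s), ENSRNOG00000001827 (Masp1), ENSRNOG00000046834 (C3), ENSRNOG00000051235 (Cfb), ENSRNOG00000007457 (Serping1), ENSRNOG00000003927 (Cd55) and ENSRNOG00000042821 (Cd59). No row was named Cd46, so that surface regulator was not analysed here. RNA-seq was performed on AFCs (annulus fibrosus cells), the fibroblast-like cells of the outer ring of the intervertebral disc, isolated from Sprague Dawley rats with the tissue of 8 rats pooled per isolation, and used at the third generation in culture. All 8 samples received CMS (cyclic mechanical stretch) at 20% elongation and 0.5 Hz for 36 h. The cells had also been exposed for 24 h to a lentivirus, 20 infectious units per cell, which was the vector pLVX-shRNA-Puro in 4 samples (Lv-Ctrl) and pLVX-shRNA-Puro-Piezo1, built to knock down the stretch-gated channel Piezo1, in the other 4 (Lv-Piezo1). There was no unstretched or uninfected sample, so stretch and lentivirus were shared by both groups.

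Complement is a cascade of blood and tissue proteins that tags and lyses targets. The classical pathway starts when C1q activates the proteases C1r and C1s, the lectin pathway starts when collectins or ficolins activate the MASP proteases, and the alternative pathway amplifies through factor B and factor D. All of them cleave C3. Cells hold the cascade back with a secreted inhibitor of C1r, C1s and the MASPs (Serping1) and with membrane proteins that break up C3 convertases (Cd55), help to inactivate C3b (Cd46 and, in rodents, Cr1l) or block the terminal pore (Cd59). Fibroblasts are a known local source of C1r, C1s, C3 and factor B.

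The groups are named by their labels, because the targeted transcript went against them. The paper reports that the knockdown was verified to be effective, and the values here are of RNA, not protein. Piezo1 had 30.1 ± 2.67 TPM in the Lv-Ctrl samples and 39.4 ± 1.75 TPM in the Lv-Piezo1 samples (SD, n = 4 each), and a higher or lower level below refers to the samples labelled Lv-Piezo1. TPM, a measure of transcript abundance, is corrected for transcript length and scaled to a fixed total per sample. It keeps no read depth, so the depth is unknown. Errors rest on the spread among the 4 samples of each group, which the fit draws toward that of genes of similar level. The 13103 genes whose mean reached 1 TPM were compared by limma on the log2(TPM + 1) scale, and a gene was called where the p adjusted by Benjamini-Hochberg was under 0.05 and the log2 fold change reached 1 in either direction. The scale understates the change of genes with few TPM. The median of all tested genes lay at 0.14, and median-ratio scaling brought it to -0.0046. Piezo1 lay at 0.38 (limma adjusted p = 8.6e-04), and at 0.22 after median-ratio scaling (limma adjusted p = 0.0028). Of 17 markers of annulus fibrosus cells and fibroblasts 16 were tested, with 2 called higher and 3 called lower. Among all tested genes 4.91% were called higher and 2.76% lower. The collagen gene Col1a1 was abundant in all samples (3282 ± 137 and 5835 ± 103 TPM, SD, n = 4 each), and Thbs4 and Comp were called higher. The 3 lower markers were Dcn, which encodes the matrix proteoglycan decorin (1456 ± 69.3 and 519 ± 14.9 TPM, log2 fold change -1.49), the fibroblast receptor gene Pdgfra (194 ± 18.9 and 74.8 ± 4.85 TPM, -1.36) and Cilp (6.65 ± 0.963 and 1.45 ± 0.229 TPM, -1.64). The tendon marker Tnmd lay below the limit for testing, at no more than 0.08 TPM. The part of these marker differences in the complement values was not tested.

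Complement expression was lower in the Lv-Piezo1 samples for the membrane regulator Cd55 and for the proteases and substrates C1s, C1r, C3 and Cfb, and higher for Masp1, Serping1 and Cd59. Cd55 and C1s, 2 of the 8 genes, passed the threshold, both lower, where 2.76% of all tested genes were called lower, 4.91% higher and 7.67% in either direction. At the adjusted p alone, 5 genes were lower and 3 higher, where 16.3% of all tested genes were lower, 41.9% higher and 58.2% passed in either direction by that rule. In all 8 genes the groups did not overlap, which was also the case in 54.2% of tested genes (14.5% lower and 39.8% higher). The median log2 fold change of the 8 genes was -0.46. As these are bulk samples, fewer expressing cells and less RNA per cell cannot be told apart.

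**Figure D1:**
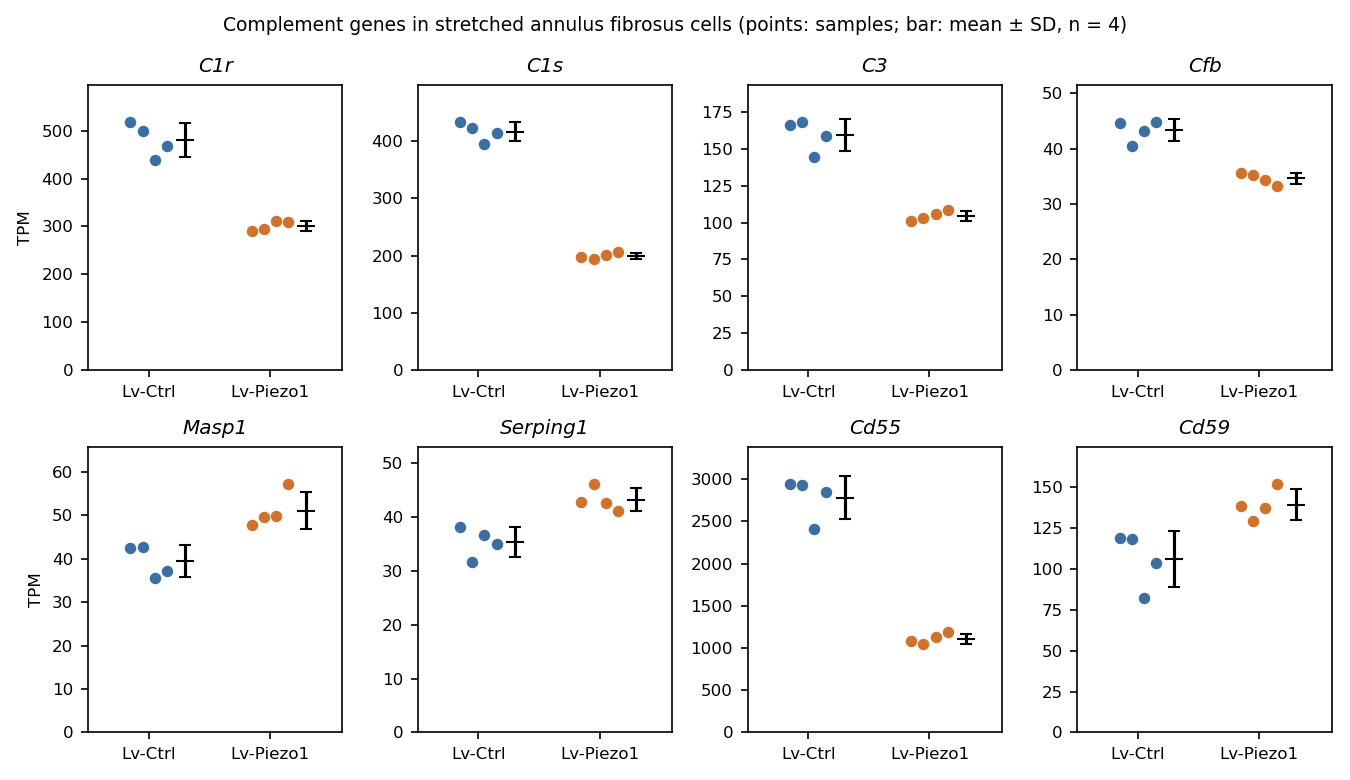
TPM of 8 complement genes (vertical axis of each panel, starting at 0) in the 4 Lv-Ctrl samples (blue) and the 4 Lv-Piezo1 samples (orange), in the order of replicates 1 to 4, with the mean ± SD in black. The 5 genes C1r, C1s, C3, Cfb and Cd55 lay lower in every Lv-Piezo1 sample, and the 3 genes Masp1, Serping1 and Cd59 lay higher.

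C1r and C1s encode the paired proteases of the C1 complex, C1r being the one that activates C1s. C1s measured 433.93, 423.69, 394.45 and 414.69 TPM in Lv-Ctrl replicates 1 to 4 and 197.24, 194.68, 200.38 and 205.91 TPM in Lv-Piezo1 replicates 1 to 4. The highest Lv-Piezo1 sample thus lay well below the lowest Lv-Ctrl sample. C1s fell from 417 ± 16.8 to 199.6 ± 4.84 TPM (SD, n = 4 each), or by 52.1%, with a log2 fold change of -1.06 (standard error 0.04, limma adjusted p = 2.9e-08). C1r measured 518.64, 499.53, 438.73 and 468.08 TPM in the Lv-Ctrl samples and 290.91, 294.66, 310.68 and 309.94 TPM in the Lv-Piezo1 samples. Its groups were also apart, with a mean of 481 ± 35.2 against 302 ± 10.2 TPM (SD, n = 4 each). The log2 fold change of C1r was -0.67 (standard error 0.05, limma adjusted p = 6.5e-06), which is below the fold change threshold.

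In Lv-Ctrl replicates 1 to 4 the level of C1r was 1.195, 1.179, 1.112 and 1.129 times that of C1s. In the Lv-Piezo1 samples this ratio was 1.47, 1.51, 1.55 and 1.51, above every Lv-Ctrl sample, which describes the pair and was not tested. C1r and C1s are direct neighbours in the RefSeq gene order of assembly GRCr8, and C1rl, which encodes a C1r-like protease, lies on the other side of C1r. C1rl had 13.8 ± 1.28 TPM in the Lv-Ctrl and 13.8 ± 0.49 TPM in the Lv-Piezo1 samples (SD, n = 4 each), with a log2 difference of 0.01 (standard error 0.07) that became -0.14 after median-ratio scaling. The genes of C1q itself, C1qa, C1qb and C1qc, were listed at 0 in all 8 samples.

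Masp1, a protease of the lectin pathway, was the one protease among the named genes that lay higher in the Lv-Piezo1 samples. It measured 42.50, 42.69, 35.50 and 37.17 TPM in the Lv-Ctrl samples and 47.67, 49.50, 49.87 and 57.19 TPM in the Lv-Piezo1 samples. The groups did not overlap, and replicate 4 was the highest of the Lv-Piezo1 samples. The log2 fold change was 0.36 (standard error 0.08, limma adjusted p = 0.0030), or 0.21 after median-ratio scaling (limma adjusted p = 0.015). Its sister protease Masp2 had at most 0.35 TPM in any sample.

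C3, the component on which the pathways converge, measured 166.41, 168.34, 144.27 and 158.36 TPM in the Lv-Ctrl samples and 101.01, 103.19, 105.55 and 108.67 TPM in the Lv-Piezo1 samples. All Lv-Piezo1 samples lay below all Lv-Ctrl samples, at 105 ± 3.28 against 159 ± 10.9 TPM (SD, n = 4 each). The difference was 34.4% of the Lv-Ctrl mean, with a log2 fold change of -0.60 (standard error 0.05, limma adjusted p = 1.1e-05). The 3 tested genes whose log2(TPM + 1) values over the 8 samples correlated most with those of C3 were Antxr1 (Pearson r = 0.999), Ampd3 (r = 0.998) and Prdm1 (r = 0.998). These samples fall into 2 separate groups and 1116 of 11580 genes with a symbol had r above 0.9, so the likeness is a description only.

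Cfb encodes factor B, the protease that joins C3b in the alternative pathway convertase. It measured 44.54, 40.52, 43.24 and 44.85 TPM in the Lv-Ctrl samples and 35.64, 35.21, 34.30 and 33.34 TPM in the Lv-Piezo1 samples. The groups were close but did not overlap, and the log2 fold change was -0.31 (standard error 0.04, limma adjusted p = 2.3e-04). The table describes the row with the symbol Cfb as complement C2, the neighbouring gene of related structure, and has no row named C2. Which of the neighbouring genes the reads came from cannot be told from the table. C3 stood at 3.34 to 4.15 times the level of the Cfb row in the Lv-Ctrl samples and at 2.83 to 3.26 times in the Lv-Piezo1 samples.

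Serping1, the inhibitor of C1r, C1s and the MASP proteases, measured 38.19, 31.74, 36.61 and 35.02 TPM in the Lv-Ctrl samples. In the Lv-Piezo1 samples it measured 42.89, 46.15, 42.67 and 41.05 TPM. The lowest Lv-Piezo1 sample lay just above the highest Lv-Ctrl sample. The log2 fold change was 0.28 (standard error 0.06, limma adjusted p = 0.0035), and after median-ratio scaling it was 0.12 and no longer passed (limma adjusted p = 0.19). The TPM of C1s was 10.8 to 13.3 times that of Serping1 in the Lv-Ctrl samples and 4.22 to 5.02 times in the Lv-Piezo1 samples. This is a ratio of transcripts, and the proteins were not measured here.

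Cd55, or decay-accelerating factor, dissociates C3 convertases on the cell's own surface and was the most abundant of the 8 genes. It measured 2942.89, 2931.97, 2405.61 and 2847.09 TPM in the Lv-Ctrl samples and 1079.29, 1043.33, 1125.94 and 1186.83 TPM in the Lv-Piezo1 samples. The lowest Lv-Ctrl sample, replicate 3, still had more than the highest Lv-Piezo1 sample. By its group mean Cd55 ranked 40 among all rows of the table in the Lv-Ctrl samples and 148 in the Lv-Piezo1 samples. It fell from 2782 ± 254 to 1109 ± 62.0 TPM (SD, n = 4 each), or by 60.1%, with a log2 fold change of -1.32 (standard error 0.07, limma adjusted p = 4.8e-07). Cd55 made up 67.2% to 69.3% of the summed TPM of the 8 genes in the Lv-Ctrl samples and 55.0% to 56.7% in the Lv-Piezo1 samples. Without Cd55, the other genes summed to 1175 to 1363 TPM and to 853 to 908 TPM.

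Cd59 encodes the membrane protein that keeps C9 from completing the membrane attack complex. It measured 119.20, 118.40, 82.46 and 103.79 TPM in the Lv-Ctrl samples and 138.21, 129.17, 137.38 and 151.96 TPM in the Lv-Piezo1 samples. Its Lv-Ctrl samples were the most spread of the 8 genes relative to their mean, with replicate 3 the lowest, yet all lay below the Lv-Piezo1 samples. The log2 fold change was 0.40 (standard error 0.11, limma adjusted p = 0.012), against 0.24 after median-ratio scaling (limma adjusted p = 0.046). The level of Cd55 was 24.7 to 29.2 times that of Cd59 in the Lv-Ctrl samples and 7.81 to 8.20 times in the Lv-Piezo1 samples. Exact permutation of the group labels (two-sided, 70 arrangements) gave p = 0.029 for each of the 8 genes, the smallest that 4 samples against 4 allow.

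**Figure D2:**
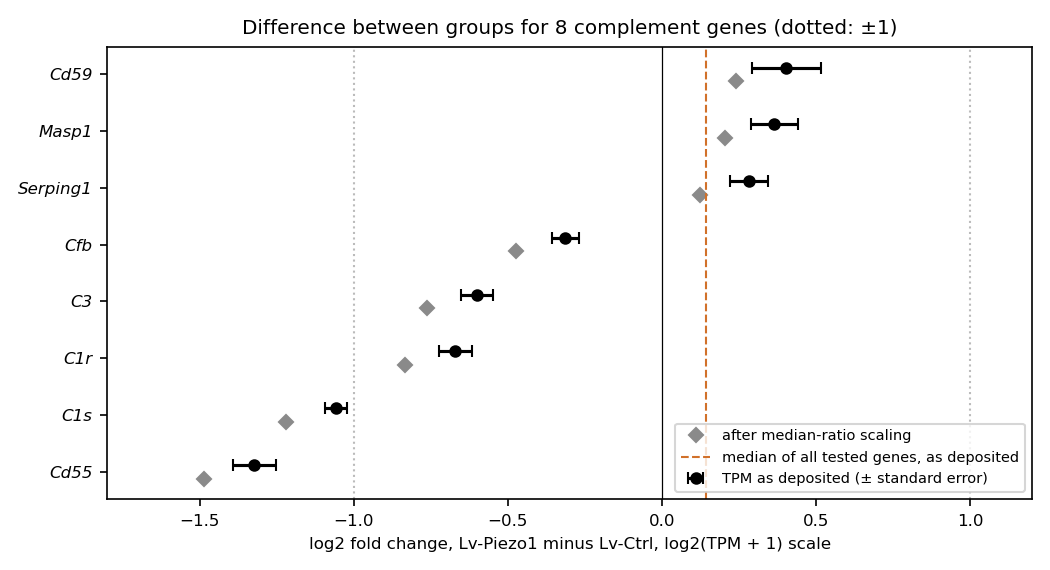
Log2 fold change of 8 complement genes (horizontal axis, Lv-Piezo1 minus Lv-Ctrl, 4 samples each) on the deposited TPM with its standard error (black circles) and after median-ratio scaling (grey diamonds), with the median of all tested genes at 0.14 (dashed line). Cd55 at -1.32 and C1s at -1.06 lay past the fold change threshold of 1 (dotted lines), and scaling moved every gene to the left.

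RefSeq promoters of assembly GRCr8 were held for 5 of the 9 named genes. The 250 bases before the annotated start are shown for C1r, C3 and Cd55, which were lower, and for Masp1, which was higher, to set the upstream sequence of genes with opposite directions side by side, read 5′ to 3′ on the strand of the gene. Capitals mark matches to the C/EBP motif TTNNGNAA on either strand, where overlapping matches are merged.
C1r, chr4:159098763-159099012, + strand: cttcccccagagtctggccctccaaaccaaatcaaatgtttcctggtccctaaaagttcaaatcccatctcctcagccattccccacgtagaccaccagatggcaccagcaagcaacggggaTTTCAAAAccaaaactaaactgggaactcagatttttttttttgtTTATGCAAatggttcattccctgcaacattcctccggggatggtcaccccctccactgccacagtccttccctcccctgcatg
C3, chr9:2201340-2201589, - strand: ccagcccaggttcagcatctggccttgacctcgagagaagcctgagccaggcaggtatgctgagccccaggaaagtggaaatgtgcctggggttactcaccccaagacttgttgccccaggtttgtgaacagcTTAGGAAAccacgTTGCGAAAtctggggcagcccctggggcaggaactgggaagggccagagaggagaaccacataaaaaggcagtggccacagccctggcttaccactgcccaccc
Cd55, chr13:44438102-44438351, - strand: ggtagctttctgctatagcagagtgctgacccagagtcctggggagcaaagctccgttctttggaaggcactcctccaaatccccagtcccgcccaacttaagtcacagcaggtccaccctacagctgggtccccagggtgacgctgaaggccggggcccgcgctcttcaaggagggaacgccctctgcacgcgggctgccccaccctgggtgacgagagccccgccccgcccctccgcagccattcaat
Masp1, chr11:90839472-90839721, + strand: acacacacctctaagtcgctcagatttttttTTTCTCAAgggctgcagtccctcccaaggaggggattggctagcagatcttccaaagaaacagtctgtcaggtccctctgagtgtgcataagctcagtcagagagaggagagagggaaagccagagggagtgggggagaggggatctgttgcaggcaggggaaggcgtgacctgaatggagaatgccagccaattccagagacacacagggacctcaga
C/EBP factors and STAT proteins are known activators of complement genes in inflammation. The C/EBP motif matched at 2 places in C1r and in C3 and at 1 in Masp1, and had no match in the Cd55 window. It occurs in 37.2% of the 33469 promoters of the same length, so a match is common. No match to the GAS motif TTCNNNGAA (7.67% of promoters), the ISRE motif (3.41%), the AP-1 motif TGANTCA (6.34%) or the kappaB motif (6.33%), each searched on both strands, lay in these 4 windows. The sequence matches were not tested against the expression values.

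To place the 8 genes in the cascade, a further list of 49 complement genes was read, of which 44 had a row, 14 were tested and 30 lay below the limit for testing. Among the tested genes 1 of 14 was called, against 7.67% of all tested genes, and this was Cfd, which encodes factor D, the protease that cleaves factor B. Cfd measured 4.18, 4.62, 4.01 and 3.44 TPM in the Lv-Ctrl samples and 0.29, 0.93, 1.61 and 0.33 TPM in the Lv-Piezo1 samples. Its groups did not overlap, though the Lv-Piezo1 values were scattered close to 0. Cfd fell by 1.56 on the log2 scale (standard error 0.22, limma adjusted p = 2.9e-04), and the change was -2.49 with a pseudocount of 0.1. At the adjusted p alone 6 of the 14 genes were higher and 6 lower, where 41.9% of all tested genes were higher and 16.3% lower. After median-ratio scaling 3 were higher and 7 lower, for which the shares of all tested genes are not given here. The median log2 fold change of the 14 genes was -0.07, against 0.14 for all tested genes. With median-ratio scaling it was -0.22, against -0.0046 for all tested genes.

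The recognition molecule with the highest level was Colec11, a collectin of the lectin pathway, at 1496 ± 120 TPM in the Lv-Ctrl and 1354 ± 36.9 TPM in the Lv-Piezo1 samples (SD, n = 4 each). Its log2 fold change of -0.14 (standard error 0.05, limma adjusted p = 0.048) was -0.01 after quantile normalization (limma adjusted p = 0.81). After median-ratio scaling it was -0.30 (limma adjusted p = 0.0081). Colec12, a scavenger receptor with a collectin domain, had 58.5 ± 4.88 and 34.9 ± 1.87 TPM, a log2 fold change of -0.73 (standard error 0.07, limma adjusted p = 1.5e-05). The other recognition molecules with a row, Mbl1, Fcna, Fcnb and Colec10, stayed below 0.5 TPM in every sample. Of the genes of the terminal pathway, C5, C6, C8a, C8b and C9 had at most 0.10 TPM in any sample, and no row was named C7. C8g, which encodes the lipocalin chain of C8, had 10.2 ± 1.52 and 13.7 ± 1.29 TPM (SD, n = 4 each).

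C4a and C4b are near-identical copies whose reads can be divided between them, so their values are uncertain. C4a was tested at 0.775 ± 0.200 and 1.29 ± 0.083 TPM (SD, n = 4 each), and C4b had at most 0.05 TPM. Cfp, which encodes properdin, the stabilizer of the alternative convertase, had 1.31 ± 0.398 and 2.62 ± 0.382 TPM (SD, n = 4 each). C4a, C8g, Cfp, C5ar2, Thbd and Itgax were named after their values had been seen.

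Among the other regulators, Cr1l, the rodent membrane regulator of C3b and C4b and a neighbour of Cd46 in the gene order, had 51.2 ± 1.29 TPM in the Lv-Ctrl and 45.7 ± 1.03 TPM in the Lv-Piezo1 samples. Its log2 fold change was -0.16 (standard error 0.03, limma adjusted p = 0.0033). Clu, or clusterin, a soluble inhibitor of the terminal complex, had 483 ± 12.3 and 532 ± 5.07 TPM, and its log2 fold change of 0.14 became -0.02 after median-ratio scaling. Thrombomodulin, encoded by Thbd, had 4.94 ± 0.385 and 7.31 ± 0.343 TPM (SD, n = 4 each).

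The receptors for complement fragments that had a row differed in level. No row was named C5ar1, so that receptor of C5a was not analysed. C3ar1, the receptor of C3a, had at most 0.04 TPM, and Cr2 and Vsig4 were listed at 0 throughout. C5ar2, the second receptor of C5a, had 11.6 ± 1.00 and 7.31 ± 0.634 TPM (SD, n = 4 each), with a log2 difference of -0.61 (standard error 0.08, limma adjusted p = 1.6e-04). Itgax, a subunit of complement receptor 4, had 2.63 ± 0.323 and 2.18 ± 0.25 TPM and did not pass (limma adjusted p = 0.15). It did pass after median-ratio scaling (limma adjusted p = 0.020). The other integrin subunits of the list, Itgb2 and Itgam, had at most 0.14 and 0.51 TPM in any sample. C1qbp, a mitochondrial protein that also binds C1q, had 102 ± 3.83 and 135 ± 5.40 TPM, a log2 fold change of 0.39 (standard error 0.04, limma adjusted p = 3.7e-05).

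**Figure D3:**
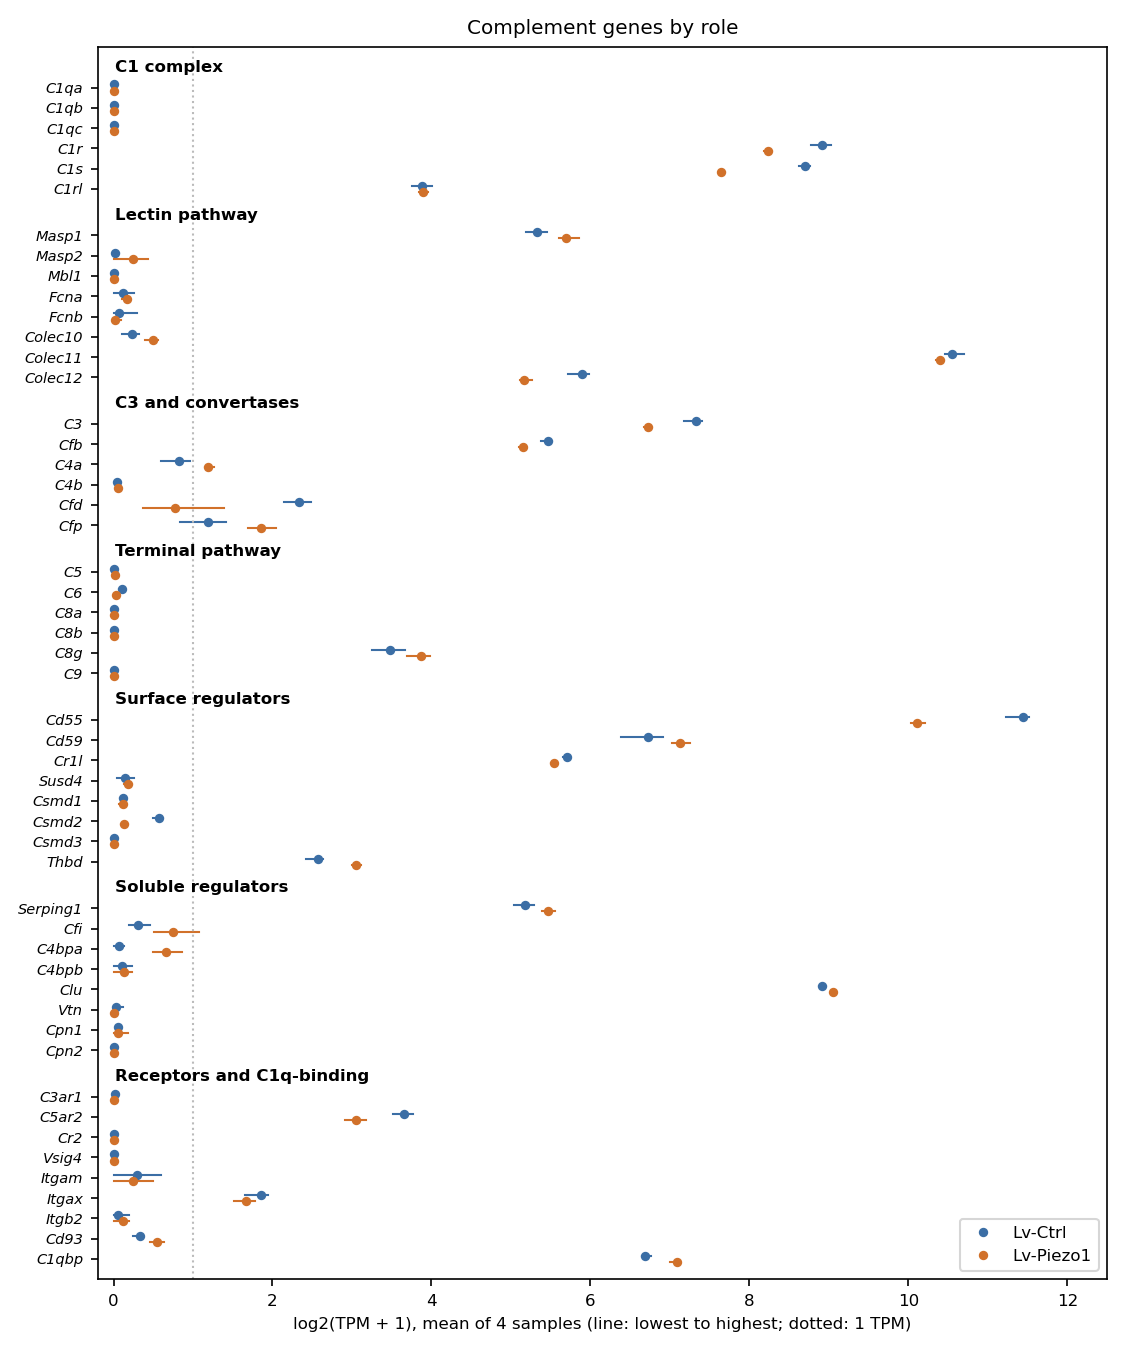
Level of measured complement genes, grouped by role, as log2(TPM + 1) (horizontal axis), with the mean of 4 samples (circles) and the lowest to highest sample (lines) for Lv-Ctrl (blue) and Lv-Piezo1 (orange). Cd55 and Colec11 stood highest, C1qa, C1qb, C1qc and C9 were listed at 0, and the dotted line marks 1 TPM.

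Complement genes are known targets of interferon-gamma, IL-6 family and IL-1 or TNF signalling, and 30 genes of these pathways were read as a second list. Of the 24 that were tested, 2 were called, Tnfaip3 and Il1rap, both higher, where 4.91% of all tested genes were called higher and 7.67% in either direction. Tnfaip3, an inhibitor of NF-kappaB signalling, had 2.18 ± 0.407 TPM in the Lv-Ctrl and 7.79 ± 0.771 TPM in the Lv-Piezo1 samples and rose by a log2 fold change of 1.47 (standard error 0.11, limma adjusted p = 5.1e-06). Il1rap, a subunit of the IL-1 receptor, had 5.17 ± 0.521 and 14.6 ± 1.29 TPM and rose by a log2 fold change of 1.34 (standard error 0.08, limma adjusted p = 1.4e-06). At the adjusted p alone 19 of the 24 genes were higher and 2 lower, where 41.9% of all tested genes were higher and 16.3% lower. After median-ratio scaling 16 were higher and 2 lower, for which the shares of all tested genes are not given here. The median log2 fold change of the 24 genes was 0.46, against 0.14 for all tested genes. With median-ratio scaling it was 0.31, against -0.0046 for all tested genes.

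Stat3, which carries the IL-6 signal, had 40.6 ± 4.59 and 65.1 ± 5.18 TPM, a log2 fold change of 0.67 (standard error 0.09, limma adjusted p = 1.6e-04). Larger log2 fold changes below the threshold were those of Osmr (0.95), Il6 (0.91), Il1r1 (0.72) and Il6st (0.69). After median-ratio scaling these were 0.81, 0.76, 0.57 and 0.53. Smaller ones included Rela, a subunit of NF-kappaB, with a log2 fold change of 0.27, and Tnfrsf1a, the main TNF receptor, with 0.24. After median-ratio scaling Rela was at 0.11 (limma adjusted p = 0.048) and Tnfrsf1a at 0.08 (limma adjusted p = 0.16). Osmr, Il6, Il1r1, Il6st, Rela and Ifng were named after their values had been seen. Jak1, a kinase of interferon-gamma and IL-6 family signalling, had 44.8 ± 5.06 and 49.7 ± 4.65 TPM and did not pass (limma adjusted p = 0.19). The 2 lower genes were Cebpd, an activator of acute-phase genes, and Nfkbia, the inhibitor of NF-kappaB. Cebpd had 258.69 to 279.77 TPM in the Lv-Ctrl and 184.47 to 214.98 TPM in the Lv-Piezo1 samples, a log2 fold change of -0.43 (standard error 0.05, limma adjusted p = 6.2e-05). Nfkbia had 109 ± 7.97 and 83.7 ± 2.20 TPM, a log2 fold change of -0.37 (standard error 0.05, limma adjusted p = 3.1e-04). Cebpb, a close relative of Cebpd, had 375 ± 63.4 and 354 ± 86.0 TPM, and its groups overlapped (limma adjusted p = 0.67). Ifng was listed at 0 in all samples.

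**Figure D4:**
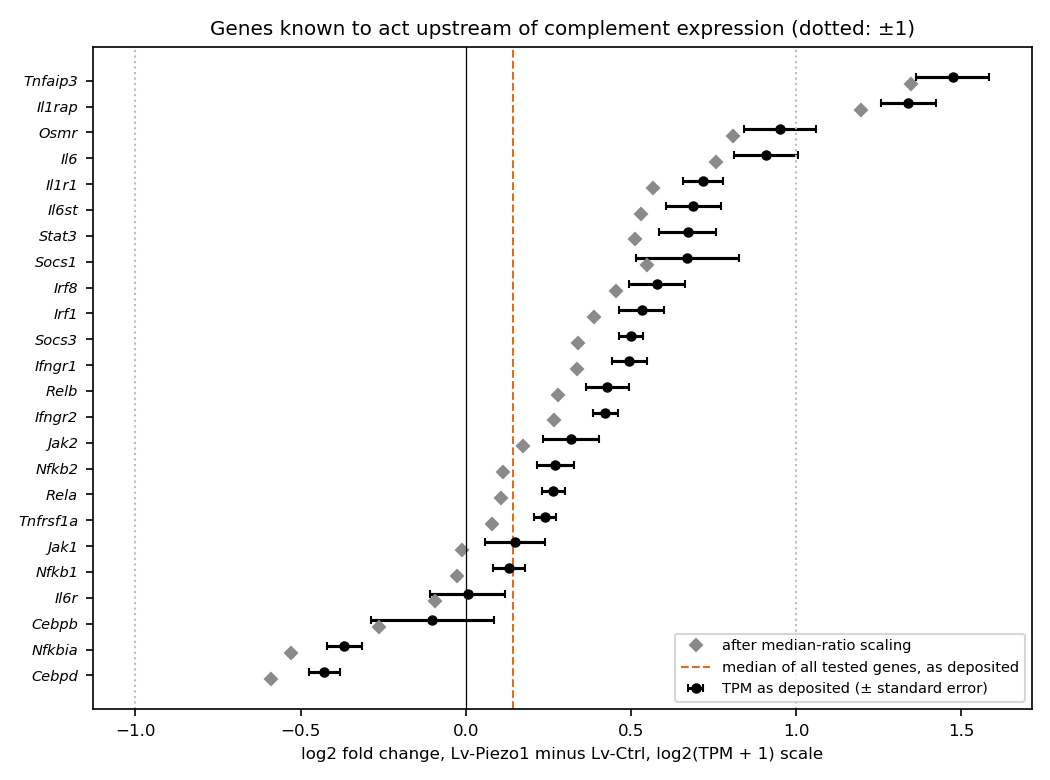
Log2 fold change of the 24 tested genes known to act upstream of complement expression (horizontal axis, Lv-Piezo1 minus Lv-Ctrl, 4 samples each), on the deposited TPM with its standard error (black) and after median-ratio scaling (grey diamonds), with the median of all tested genes at 0.14 (dashed line). Tnfaip3 at 1.47 and Il1rap at 1.34 lay past 1 (dotted lines), Nfkbia and Cebpd lay lowest, and scaling moved Jak1, Nfkb1 and Il6r across 0.

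Leukocytes, endothelial cells, smooth muscle cells and hepatocytes also make complement proteins, so their markers were read beside these genes. Of 17 macrophage and leukocyte markers 3 were tested. The defining markers Adgre1, Cd163, Tyrobp and Laptm5 were listed at 0 in every sample and Ptprc had at most 0.01 TPM, while Cd68 rose, with 0.955 ± 0.899 TPM in the Lv-Ctrl and 12.3 ± 0.901 TPM in the Lv-Piezo1 samples. The summed level of this list was 136 to 143 TPM in the Lv-Ctrl and 149.6 to 156 TPM in the Lv-Piezo1 samples, most of it Fcer1g. Of 12 endothelial markers, which summed to 27.1 to 35.7 and 39.5 to 45.2 TPM, 3 were tested and 2 of them called higher, Esam (0.203 ± 0.114 and 5.68 ± 0.893 TPM, log2 fold change 2.47) and Flt1 (1.67 ± 0.159 and 5.59 ± 0.458 TPM, 1.30). Most of the endothelial sum was Egfl7, while the defining markers Cdh5 and Emcn had at most 0.06 TPM and were listed at 0, respectively. Of 8 hepatocyte markers, Alb had at most 0.04 TPM, while Hp, an acute-phase protein, fell from a range of 26.00 to 29.91 TPM to one of 8.55 to 11.56 TPM and made up most of the summed 26.6 to 31.4 and 10.0 to 12.9 TPM. The 12 smooth muscle and pericyte markers summed to 828 to 863 TPM in the Lv-Ctrl and 4604 to 4773 TPM in the Lv-Piezo1 samples. Of the 10 that were tested, 6 were called higher and 2 lower, where 4.91% of all tested genes were called higher and 2.76% lower. Most of the Lv-Piezo1 sum was Tagln (219 ± 4.64 and 2730 ± 41.2 TPM) and Acta2 (51.2 ± 2.27 and 1344 ± 40.5 TPM). The 2 lower genes were Kcnj8 (326 ± 5.61 and 39.1 ± 2.61 TPM) and Abcc9 (73.7 ± 10.1 and 12.3 ± 1.04 TPM). The nucleus pulposus and chondrocyte-like markers summed to 47.9 to 56.8 and 80.0 to 87.7 TPM, with Tbxt listed at 0 and Col2a1 at no more than 0.59 TPM. Of the 5 of them that were tested 1 was called, Cd24, which rose (3.79 ± 0.207 and 21.9 ± 1.91 TPM, log2 fold change 2.25), and Acan, which encodes the proteoglycan aggrecan, had 31.6 ± 2.95 and 47.1 ± 1.82 TPM. The part of these cells or states in the complement values was not tested.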

How the data were processed

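RNA-seq was measured in 4 Lv-Ctrl and 4 Lv-Piezo1 samples of stretched AFCs. After read filtering, the authors used HISAT2 for mapping to the rat genome and StringTie for transcripts. Their methods name FPKM, while the deposited table holds TPM for each sample, plus group means that were only checked against the sample columns. The submitters' processing notes name mm10, a mouse build, and DESeq2, while the identifiers are rat Ensembl genes. The build and annotation used for the rat are not given in the sources used here. TPM keeps no depth, so no count model was fitted and no counting interval is given.

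Log2(TPM + 1) was fitted for the 13103 genes with a mean of at least 1 TPM in limma 3.58.1 (R 4.3.3) with trended empirical Bayes moderation, all 8 samples and no block, p-values were adjusted over all these genes by Benjamini-Hochberg, and the fit was tested on simulated data. Exact permutation tests used SciPy 1.17.1. The members and gene lists were chosen with earlier results of these data known. The named genes are all members, every called gene of the lists of other complement genes and of complement induction genes, the 6 of highest mean TPM in each, Piezo1, and the 3 genes most like C3; marker genes are named beside the complement genes. Other genes of these lists that the text names, including those below the limit for testing, those that stood apart in 1 sample (Irf8, Ifngr2, Jak2) and those whose sign or call moved with the processing (Osmr, Il6r, Nfkb1), were named after their values had been seen. Some genes of these lists are not reported here. The promoter motifs were chosen after the expression values were known. Columns were matched to samples through the sample labels, and no 2 samples held identical values. The labels do not say whether the 4 samples of a group came from separate isolations. The paper describes 4 biological repeats for the RNA-seq, and counts the differently treated third-generation cells of an isolation as 1 independent repeat. Which Lv-Ctrl and Lv-Piezo1 samples shared a repeat is not stated in the labels. Alternatives tried were median-ratio scaling, quantile normalization, a pseudocount of 0.1, a filter at a mean of 5 TPM or none, moderation without the trend, a block for the replicate number, calls by the adjusted p alone, and each sample left out in turn. The counts at the adjusted p alone were followed under these alternatives only after the fit had been seen.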

Additional observations from a re-analysis of the deposited data

Results flagged for a closer look

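Among 94 sets of 4 samples of the tested complement and induction genes and Piezo1, 6 held a sample that stood apart from the other samples of its group by Dixon's criterion, where chance gives about 1 in 20. None of them was among the 8 complement members. In the Lv-Ctrl samples, replicate 3 was lowest for Thbd (4.37 TPM, the next being 5.08) and for Jak2 (5.61 TPM, the next being 6.91) and highest for Ifngr2 (21.24 TPM, the next being 20.18), and replicate 1 was lowest for Rela (41.89 TPM, the next being 42.91). In the Lv-Piezo1 samples, replicate 4 was highest for Jak2 (9.59 TPM, the next being 8.19) and replicate 1 for Irf8 (4.79 TPM, the next being 4.11).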

How the results depend on the processing

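The 8 complement members kept their direction and their side of the threshold in all 120 combinations of gene and alternative, with a range of -1.49 to -1.25 for Cd55 and of -1.22 to -1.04 for C1s. The number of members called stayed at 2, except that 8 passed without the fold change threshold. At the adjusted p alone 5 members were lower under every alternative, and 3 were higher except under the median-ratio and quantile settings, where Serping1 was lost and 2 remained (limma adjusted p = 0.19 and 0.052). Over all genes, 644 were called higher and 361 lower, a share of 64.1% higher that became 52.3% with median-ratio and 48.8% with quantile scaling. With a mean of at least 5 TPM 372 were called higher, and without the fold change threshold 5489 were higher and 2137 lower. Of the other complement genes 1 was called, against 0 with a mean of at least 5 TPM (Cfd is then not tested), 2 with quantile normalization and 12 without the fold change threshold. Of the induction genes 2 were called, against 1 with a mean of at least 5 TPM (Tnfaip3 is then not tested) and 21 without the fold change threshold. Osmr was added to them with a pseudocount of 0.1 (1.06) and without Lv-Ctrl replicate 2 (1.02).

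Some small differences changed sign. After median-ratio scaling C1rl was -0.14, Clu -0.0217, Jak1 -0.0105, Il6r -0.0934 and Nfkb1 -0.0272, and after quantile normalization C1rl was -0.17, Il6r -0.23 and Nfkb1 -0.0016. Leaving out 1 sample gave C1rl a range of -0.0306 to 0.0499, Il6r one of -0.0585 to 0.0509 and Cebpb one of -0.23 to 0.0607, and the cause was not tested. Leaving out 1 sample moved the number of all genes called higher between 626 and 681. Samples with the same replicate number did not deviate together (correlation of -0.06 to -0.01, and no sample correlated best with its own number), so the numbers were not taken as pairs. With the replicate block 644 genes were called higher and 360 lower, and 2 members were called.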
